A study of Mus musculus with 8 samples.

Results

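The transcripts described here encode the nuclear subunits of the mitochondrial respiratory chain and of ATP synthase. They were chosen by symbol, as rows with 1 gene symbol of the Nduf, Sdh, Uqcr, Cox or Atp5 subunit series, or Cyc1, without assembly factors named Ndufaf or Uqcc and without symbols beginning Atp5s. The choice gave 83 of the 19752 genes with a row of their own, with 36 in complex I, 4 in complex II, 9 in complex III, 17 in complex IV and 17 in complex V. Where a gene had several rows, as 17 did, the brightest was used. Of the 83 genes, 82 passed the filter on dim rows and were among the 15007 genes tested; Cox7b2, an isoform known from testis, had log2 levels of 4.72 to 4.92 and was not tested.

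The study asked what ST2, the receptor for interleukin-33, does in regulatory T cells while muscle regenerates. The tibialis anterior of male C57BL/6 mice was injured with a cold metal probe held on the muscle for 8 seconds, and the whole muscle was taken 8 days later. Affymetrix Mouse Gene 1.0 ST arrays were run on 4 Foxp3-Cre/ST2 flox and 4 Foxp3-Cre/ST2 WT samples, 1 array each. Both groups carry Foxp3-Cre, which acts in Foxp3-expressing regulatory T cells, a small share of the cells in whole muscle, so the fibres that hold most of these transcripts were not targeted themselves. No uninjured muscle enters the comparison. The age is given as 10 weeks in the sample labels and as 2 months in the series text. The titles number the samples 1 to 4 within each genotype without saying what the numbers stand for or that each is a separate animal, so the spread behind every p-value is that between samples and could be technical. The floxed gene has no row of its own and was not analysed here, so the arrays hold no direct check of the deletion.

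The respiratory chain passes electrons from NADH and succinate through complexes I and II, coenzyme Q, complex III and cytochrome c to oxygen at complex IV. Complexes I, III and IV pump protons across the inner mitochondrial membrane, and complex V, the ATP synthase, uses their return to make ATP. Skeletal muscle is rich in these complexes, more so in slow oxidative than in fast glycolytic fibres, and fibres rebuild their mitochondria as they regenerate. A few subunits are made from mitochondrial DNA; none of the 13 such genes was among the genes tested, so all values given here concern nuclear genes. Nuclear respiratory factor 1 (NRF1), the oestrogen-related receptors (ERR) and YY1 are known regulators of many of these genes.

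The promoters of members whose levels varied together are shown with the motifs that were searched for. Windows of 300 bases, from 250 before to 50 after a start site in RefSeq (GRCm38.p6), were given for 67 of the 83 members. The NRF1 motif, searched on both strands as GCGC, then any base, then TGCGC, was in a window of 16 of these 67 genes (23.9%), against 9.71% of the 11818 tested genes with a window and 5.19% of all 27025 genes with a window. The YY1 motif AAGATGGC was in 10 (14.9%), against 4.48% and 3.19%. The ERR motif TCAAGGTCA was in 2 (2.99%), Atp5g3 and Sdhd, against 0.355% and 0.466%. The ETS motif CCGGAAGT, in 5 (7.46%), was near the 7.52% of tested genes, and the SP1 motif GGGGCGGGG, in 11 (16.4%), was below their 22.9%. Median GC content was 57.5% in the members' windows, 60.0% in those of tested genes and 52.7% in all, and matches of different motifs overlapped in 0 of the members' windows. By complex, the NRF1 motif was in 6 of 32 genes of complex I, 2 of 3 of complex II, 1 of 5 of complex III, 1 of 12 of complex IV and 6 of 15 of complex V, and the YY1 motif was in 7 genes of complex I and 3 of complex V. A match is a description of the letters and no sign of binding. Capitals mark a motif match in the windows that follow, each read 5′ to 3′ on the gene's strand.
Ndufa9, chr6:126849095-126849394, minus strand, YY1 motif starting at base 29 from the start site: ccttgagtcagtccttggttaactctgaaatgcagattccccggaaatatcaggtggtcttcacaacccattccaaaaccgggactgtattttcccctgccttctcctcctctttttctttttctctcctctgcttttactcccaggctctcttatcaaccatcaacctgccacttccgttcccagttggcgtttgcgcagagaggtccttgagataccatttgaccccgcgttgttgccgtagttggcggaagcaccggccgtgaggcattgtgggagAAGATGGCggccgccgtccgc
Ndufs6, chr13:73328433-73328732, minus strand, NRF1 motif at -16 and YY1 motif at 33: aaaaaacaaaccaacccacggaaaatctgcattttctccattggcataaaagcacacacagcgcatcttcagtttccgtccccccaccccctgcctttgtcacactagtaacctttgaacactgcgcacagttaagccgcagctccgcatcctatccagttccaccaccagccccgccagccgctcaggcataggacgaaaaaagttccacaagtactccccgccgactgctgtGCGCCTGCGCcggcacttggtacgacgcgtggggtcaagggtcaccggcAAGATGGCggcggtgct
Sdha, chr13:74350191-74350490, minus strand, NRF1 motifs at -98, -55 and -10: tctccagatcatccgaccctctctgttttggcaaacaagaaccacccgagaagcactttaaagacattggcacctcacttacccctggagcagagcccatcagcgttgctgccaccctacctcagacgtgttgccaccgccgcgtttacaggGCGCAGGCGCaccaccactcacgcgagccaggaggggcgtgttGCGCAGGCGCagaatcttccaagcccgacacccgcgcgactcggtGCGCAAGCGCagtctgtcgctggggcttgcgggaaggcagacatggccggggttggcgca
Atp5g3, chr2:73911277-73911576, minus strand, ERR motif at -52 and NRF1 motif at 12: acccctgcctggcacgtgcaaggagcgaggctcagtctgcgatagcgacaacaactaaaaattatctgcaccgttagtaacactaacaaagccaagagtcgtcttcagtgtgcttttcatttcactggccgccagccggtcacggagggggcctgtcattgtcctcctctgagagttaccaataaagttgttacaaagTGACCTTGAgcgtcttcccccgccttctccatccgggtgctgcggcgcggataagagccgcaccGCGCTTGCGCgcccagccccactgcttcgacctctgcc
Cox5a, chr9:57520982-57521281, plus strand, no match: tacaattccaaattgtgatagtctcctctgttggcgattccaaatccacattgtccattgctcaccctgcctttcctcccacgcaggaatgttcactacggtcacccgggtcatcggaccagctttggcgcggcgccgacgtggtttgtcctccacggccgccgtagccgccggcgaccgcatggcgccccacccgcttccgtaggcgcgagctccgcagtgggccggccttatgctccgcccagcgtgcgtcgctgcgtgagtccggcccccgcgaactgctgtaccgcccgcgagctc
Cox5a is included because it had the largest difference between the sample numbers among the members. The other windows belong to members of complexes I, II and V with low p-values in that comparison. They were chosen by hand, and members with a smaller p than Atp5g3 and Sdha, such as Atp5c1 and Uqcrfs1, are not shown. Of the 67 genes with a window, 35 held any of the motifs searched for.

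Most members moved together from array to array. The mean over the 82 members of log2 levels centred per gene was -0.029, -0.11, 0.033 and 0.014 on flox arrays 1 to 4. It was -0.027, -0.12, 0.19 and 0.042 on WT arrays 1 to 4. Arrays numbered 1 and 2 lay below 0 and arrays numbered 3 and 4 above 0 in both genotypes, and the 2 extremes, arrays 2 and 3, were both WT. WT array 3 was the highest array for 62 of the 82 members (75.6%), against 14.2% of all genes tested. WT array 2 was the lowest for 31 members (37.8%, against 16.3% of all genes tested) and flox array 2 for 29 (35.4%, against 14.4%). All 82 members were higher on WT array 3 than on WT array 2, by a median of 0.30 on the log2 scale (1.23-fold) and at most by 0.81 for Ndufa4; over all genes tested the median of that difference was 0.015. The range over the 8 arrays had a median of 0.37 among members, from 0.094 for Atp5md to 0.81 for Ndufa4, and of 0.32 among all genes tested.

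**Figure D1:**
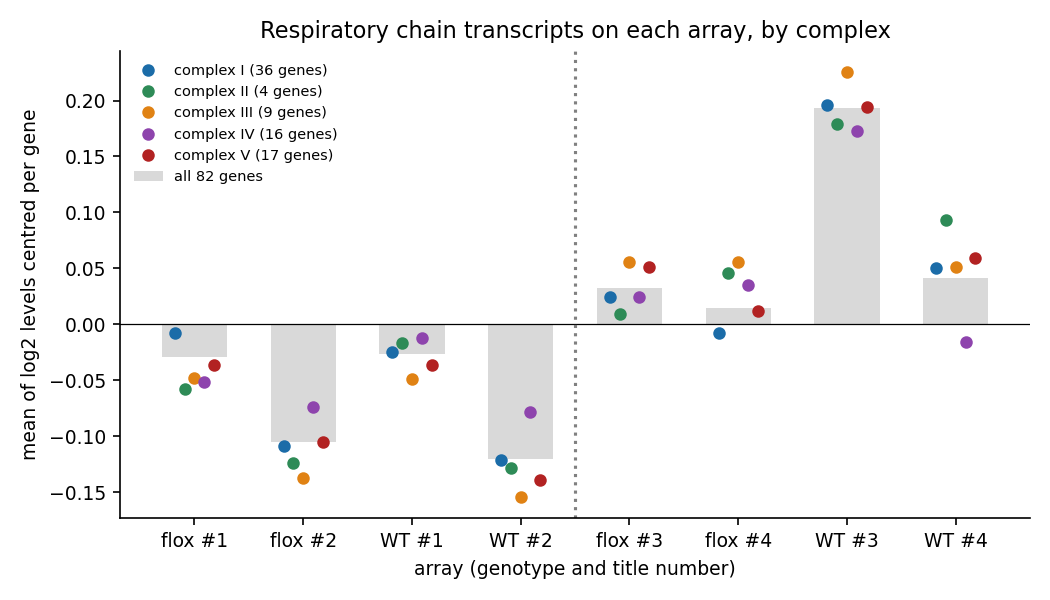
Mean log2 level on each of the 8 arrays, with each gene centred on its own mean, as grey bars over all 82 members and as points for the members of complexes I to V. Arrays numbered 1 and 2 stand left of the dotted line and arrays numbered 3 and 4 right of it. WT array 3 is the highest at 0.19 and WT array 2 the lowest at -0.12. The points of the complexes have the sign of the bars, except complex I on flox array 4 (-0.0079) and complex IV on WT array 4 (-0.016).

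Across the 8 arrays the median correlation of a member with the mean of the other members was 0.83, and 46 of 82 lay above 0.8. For genes that are not members the median correlation with the member mean was 0.083, and 799 of 14925 (5.35%) lay above 0.8. These correlations share their arrays and are given as a description. The median over the pairs within a complex was 0.85 in complex II, 0.75 in complex III, 0.73 in complex V, 0.64 in complex I and 0.38 in complex IV. The members that followed the rest least were isoforms and small subunits: Ndufa4l2 (r = -0.20), Cox6a1 (-0.015), Cox4i2 (0.070), Cox8c (0.070) and Atp5md (0.16). Of these, Cox8c was dim, at log2 levels of 6.905 to 7.28. Genes outside the list with the pattern most like the member mean over the 8 arrays were Pgpep1 and Chchd10 (both r = 0.992), Chchd3 (0.987), Kyat1 (0.985) and Fh1, fumarase of the citric acid cycle (0.984).

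Between genotypes, respiratory chain transcripts differed by little. On the log2 scale the members' median difference, flox minus WT, was -0.034 (1.02-fold lower), with 69 of 82 lower against 51.2% of all genes tested, and no single member passed the test. In limma, 0 members and 0 of the 15007 genes (0.0%) had an adjusted p under 0.05, and the smallest adjusted p among members was 0.912. At an unadjusted p under 0.05 there were 2 members, 1 lower and 1 higher, beside 3.79% of all genes (1.77% lower and 2.03% higher). The flox and WT arrays overlapped for all 82 members. They stood apart for 1.97% of all genes (0.826% lower and 1.14% higher), and 0 of 82 is near that share.

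The direction of this small difference rested on WT array 3. Without that array the members' median was 0.014 and 54 of 82 were higher in flox; without WT array 2 it was -0.092 with 75 lower, and without flox array 2 it was -0.005 with 49 lower. The spread of the members' mean over arrays was also larger than the difference: it had an SD of 0.061 in flox and 0.13 in WT (n = 4 each), around means of -0.022 and 0.022. Macrophage markers ran the other way in the same samples, with 12 of 13 higher in flox by a median of 0.17 (array means of -0.43 to 0.37 in flox and -0.18 to 0.0605 in WT), and their part in the difference was not tested. In whole muscle, fewer fibres and less RNA per fibre cannot be told apart.

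By complex, the median genotype difference was -0.035 in complex I (33 of 36 lower), -0.056 in complex II (4 of 4), -0.040 in complex III (8 of 9), -0.043 in complex IV (10 of 16) and -0.026 in complex V (14 of 17). The members nearest to a call were Ndufa5 and Cox6a1. Log2 levels of Ndufa5, an accessory subunit of the peripheral arm of complex I, were 8.74, 8.73, 8.85 and 8.77 on flox arrays 1 to 4 and 8.89, 8.83, 9.08 and 8.89 on WT arrays 1 to 4. Ndufa5 was thus lower in flox, at -0.15 (SE 0.065, adjusted p = 0.912, limma), and flox array 3 lay above WT array 2. Log2 levels of Cox6a1, the broadly expressed form of cytochrome oxidase subunit 6a, were 8.86, 8.95, 8.997 and 8.80 on flox arrays 1 to 4 and 8.73, 8.75, 8.87 and 8.57 on WT arrays 1 to 4. Cox6a1 was higher in flox by 0.17 (SE 0.075, adjusted p = 0.912, limma), opposite in direction to most members; WT array 3 lay within the flox arrays.

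The other members with the smallest p in each complex did not pass either. In complex I, Ndufb2, a subunit of the membrane arm, differed by -0.24 (SE 0.11) and Ndufs6, a zinc-binding accessory subunit, by -0.18 (SE 0.11). In complex II, the flavoprotein Sdha differed by -0.11 (SE 0.074), the membrane anchor Sdhc by -0.062 (SE 0.072) and the iron-sulphur subunit Sdhb by -0.050 (SE 0.082). In complex III the 3 were Uqcrc1 at -0.063 (SE 0.087), Uqcrq at -0.066 (SE 0.11) and cytochrome c1, Cyc1, at -0.049 (SE 0.082). In complex IV the testis-type isoforms Cox8c and Cox6b2 differed by -0.13 (SE 0.074) and -0.099 (SE 0.073). Both were dim, with log2 levels of 6.905 to 7.28 for Cox8c and 6.72 to 7.02 for Cox6b2. These lie below the 50th percentile of rows, 7.54. In complex V, subunit g, Atp5l, differed by -0.13 (SE 0.089), the epsilon subunit Atp5e by -0.15 (SE 0.14) and subunit f, Atp5j2, by -0.069 (SE 0.075). Their adjusted p lay at 0.912 or above.

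**Figure D2:**
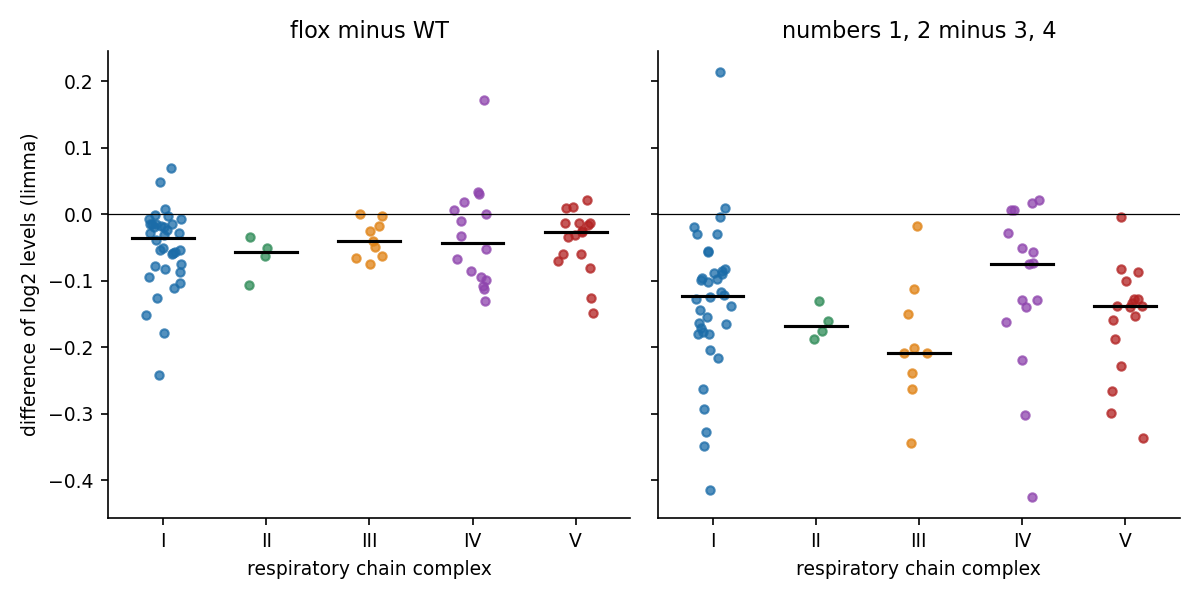
Differences of log2 levels from limma for each tested member, by complex; the left panel shows flox minus WT and the right panel arrays numbered 1 and 2 minus arrays numbered 3 and 4, with a black line at each complex's median. The genotype medians lie between -0.056 and -0.026, and the number medians between -0.21 and -0.074, with 76 of 82 members below 0 in the right panel.

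Between sample numbers, nearly all members were lower on the arrays numbered 1 and 2 than on those numbered 3 and 4, the classes compared from here on. In a limma fit with genotype as a term, 76 of 82 members were lower, against 56.7% of all genes. Their median log2 difference was -0.14 (1.10-fold lower), and that of all genes was -0.019. All members of complexes II, III and V lay on that side, with 34 of 36 in complex I and 12 of 16 in complex IV. At an unadjusted p under 0.05 there were 38 lower members and 1 higher, beside 9.65% and 8.92% of all genes (18.6% in all). For 35 members every array numbered 1 or 2 was below every array numbered 3 or 4, and for 0 members above, where 6.21% of all genes stood apart on the lower side and 4.54% on the higher (10.7% in all). Only Ndufa9 had an adjusted p under 0.05, as did 0.373% of all genes (0.16% on the lower side). This split of the samples was proposed with earlier results of these data known, so its p-values describe these arrays.

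The difference had the same direction in both genotypes. In flox the median was -0.093 with 67 of 82 lower, against 50.9% of all genes, and in WT it was -0.18 with 78 of 82 lower, against 54.5%. In flox 18 members (22.0%) had an unadjusted p under 0.05, a smaller share than the 27.1% of all genes. After adjustment 0 members passed there, beside 2.15% of all genes. In WT 37 members (45.1%) had such a p, a larger share than the 11.6% of all genes, and 0 passed (0.00666% of all genes). Without WT array 3, the highest array, 69 of 82 members were still lower (median -0.096) and 35 stood apart on the lower side (7.84% of all genes). At an unadjusted p under 0.05 there were then 27 members, 26 of them lower, and 16.3% of all genes. Without WT array 2, 73 were lower; 26 members had such a p, 25 of them lower, as did 14.0% of all genes. With both left out, 67 were lower (median -0.083); 19 members had such a p, 18 of them lower, as did 12.1% of all genes.

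Complex I, the NADH dehydrogenase, had a median difference of -0.12 between the numbers. Of its 36 members, 10 stood apart on the lower side, against 6.21% of all genes. Log2 levels of Ndufa9, an accessory subunit near the quinone site, were 10.76, 10.72, 11.09 and 11.13 on flox arrays 1 to 4 and 10.88, 10.74, 11.35 and 11.18 on WT arrays 1 to 4. Both flox and both WT arrays numbered 1 and 2 were lower than all others, and Ndufa9 was lower there 1.33-fold (log2 difference -0.41, SE 0.061, adjusted p = 0.0332, limma). The call was lost when any array other than flox array 4 or WT array 1 was left out, while the difference stayed between -0.44 and -0.37. Log2 levels of Ndufs3, a core subunit of the peripheral arm, were 11.40, 11.34, 11.59 and 11.69 on flox arrays 1 to 4 and 11.50, 11.42, 11.76 and 11.66 on WT arrays 1 to 4. The classes did not overlap, and the difference was -0.26 (SE 0.054, adjusted p = 0.0637). Log2 levels of Ndufs6, whose promoter holds both motifs shown above, were 9.40, 9.43, 9.71 and 9.57 on flox arrays 1 to 4 and 9.59, 9.46, 9.90 and 9.87 on WT arrays 1 to 4. Here flox array 4 and WT array 1 crossed, at 9.57 and 9.59, and the difference was -0.29 (SE 0.060, adjusted p = 0.0637).

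Of complex I, only Ndufa9 passed the test. Log2 levels of Ndufa8, a small subunit on the intermembrane side, were 10.59, 10.56, 10.82 and 10.80 on flox arrays 1 to 4 and 10.70, 10.48, 11.16 and 10.94 on WT arrays 1 to 4, with no overlap and a difference of -0.35 (SE 0.078). Among the core subunits that carry the redox centres, Ndufv1, which binds NADH and flavin, differed by -0.16 (SE 0.054) and Ndufs1 by -0.14 (SE 0.055). Ndufs7 differed by -0.089 (SE 0.050) and Ndufs8 by -0.0044 (SE 0.084), both iron-sulphur subunits next to the quinone. All 6 core subunits tested were on the lower side, 3 of them at an unadjusted p under 0.05. So were 12 of 13 accessory subunits of the Ndufa series (5 at that p) and 11 of 11 of the Ndufb and Ndufc series (3 at that p). Of all genes, 56.7% were lower and 18.6% had such a p in either direction. Ndufs8 had no settled direction: its difference was near 0 and turned positive without any 1 of flox arrays 2 and 3 and WT arrays 2 and 3.

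Complex II, succinate dehydrogenase, is the entry from the citric acid cycle, and all 4 of its genes were lower on arrays 1 and 2 (median -0.17). Log2 levels of Sdha, which holds the flavin and has 3 NRF1 motifs in its window, were 11.90, 11.86, 12.04 and 12.07 on flox arrays 1 to 4 and 12.04, 11.94, 12.15 and 12.18 on WT arrays 1 to 4. Log2 levels of Sdhb were 11.41, 11.27, 11.45 and 11.47 on flox arrays 1 to 4 and 11.36, 11.29, 11.61 and 11.54 on WT arrays 1 to 4. Both genes kept the classes apart, narrowly for Sdha, where WT array 1 at 12.04 lay just under flox array 3. The difference was -0.18 for Sdha (SE 0.050, adjusted p = 0.121, limma). It was -0.19 for Sdhb (SE 0.058, adjusted p = 0.144, limma). The anchor Sdhd differed by -0.16 (SE 0.065) without overlap, and Sdhc by -0.13 (SE 0.059) with overlap.

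Complex III, the cytochrome bc1 complex, had the largest median difference of the 5 complexes between the numbers, -0.21. Of its 9 genes, 7 stood apart on the lower side, against 6.21% of all genes. Log2 levels of Uqcrfs1, the Rieske iron-sulphur protein, were 9.41, 9.20, 9.60 and 9.55 on flox arrays 1 to 4 and 9.37, 9.23, 9.80 and 9.64 on WT arrays 1 to 4. Log2 levels of Cyc1, cytochrome c1, were 11.78, 11.81, 11.99 and 11.96 on flox arrays 1 to 4 and 11.84, 11.80, 12.10 and 12.01 on WT arrays 1 to 4. In both genes arrays 3 and 4 of each genotype were above all arrays 1 and 2. Uqcrfs1 differed by -0.34 (SE 0.071, adjusted p = 0.0638) and Cyc1 by -0.21 (SE 0.050, adjusted p = 0.0832), neither of which passed 0.05. The core proteins Uqcrc1 and Uqcrc2 differed by -0.21 (SE 0.058) and -0.15 (SE 0.048), and the small subunits Uqcrq, Uqcrh and Uqcrb by -0.26, -0.24 and -0.20. The classes overlapped for the small subunits Uqcr10 at -0.11 (SE 0.12) and Uqcr11, at -0.018 (SE 0.082).

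**Figure D3:**
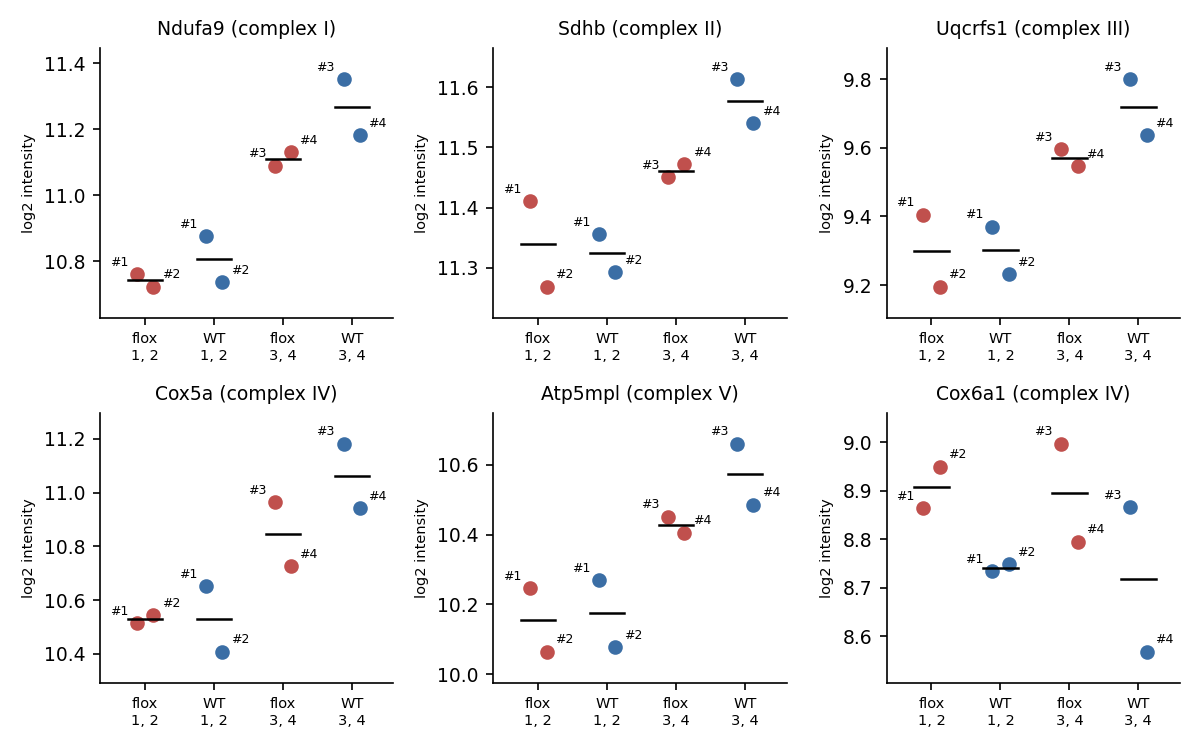
Log2 level of 1 member of each complex, with Cox6a1 as a member that did not follow the others, on each of the 8 arrays; red points are flox, blue points WT, the label gives the sample number and the black line is the mean of each pair. In the first 5 panels all arrays numbered 1 and 2 lie below all arrays numbered 3 and 4, which for Cox6a1 they do not.

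Complex IV, cytochrome c oxidase, had the smallest median difference of the 5 complexes, -0.074. Of its 16 tested genes, 6 stood apart on the lower side, against 6.21% of all genes. Log2 levels of Cox5a, a matrix-side subunit, were 10.52, 10.54, 10.97 and 10.73 on flox arrays 1 to 4 and 10.65, 10.41, 11.18 and 10.94 on WT arrays 1 to 4. The classes did not overlap, and Cox5a was lower 1.34-fold on arrays 1 and 2 (log2 difference -0.42, SE 0.089, adjusted p = 0.0638). Log2 levels of Cox4i1, the common form of subunit 4, were 10.79, 10.63, 11.002 and 10.96 on flox arrays 1 to 4 and 10.83, 10.75, 11.23 and 11.01 on WT arrays 1 to 4. Cox4i1 also kept the classes apart, with a difference of -0.30 (SE 0.065, adjusted p = 0.0686). Cox6c differed by -0.13 (SE 0.047) and Cox5b, which binds zinc, by -0.073 (SE 0.049), both without overlap.

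Several cytochrome oxidase subunits exist as isoforms that differ by tissue, and not all of them followed the other members. The muscle and heart forms Cox6a2, Cox7a1 and Cox8b differed, arrays 1 and 2 minus 3 and 4, by -0.14 (SE 0.069), -0.16 (SE 0.073) and -0.056 (SE 0.093) on the log2 scale, 0 of the 3 at an unadjusted p under 0.05. Without WT array 3 the difference of Cox8b turned to 0.029. Of the broadly expressed forms, Cox7a2 differed by -0.22 (SE 0.085), Cox8a by -0.051 (SE 0.056) and Cox6a1 by 0.017 (SE 0.075). Cox4i2, the lung form of subunit 4 that responds to low oxygen, differed by 0.022 (SE 0.061). The dim testis-type forms Cox8c and Cox6b2 differed by 0.0064 (SE 0.075) and -0.074 (SE 0.070). The supercomplex factor Cox7a2l differed by 0.0072 (SE 0.076). The common Cox6b1 was at -0.13 (SE 0.057) and Cox7b at -0.028 (SE 0.053). The signs of Cox4i2, Cox6a1, Cox7a2l, Cox7b and Cox8c turned under other settings, so none of them had a settled direction between the numbers.

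Ndufa4 and Ndufa4l2 are counted in complex I by their symbols, although the Ndufa4 protein is now known as a part of complex IV. Log2 levels of Ndufa4 were 11.03, 10.82, 11.17 and 10.95 on flox arrays 1 to 4 and 10.93, 10.65, 11.46 and 11.15 on WT arrays 1 to 4. Log2 levels of Ndufa4l2, a paralogue induced by hypoxia, were 7.998, 7.81, 7.47 and 7.56 on flox arrays 1 to 4 and 7.73, 7.71, 7.79 and 7.58 on WT arrays 1 to 4. The difference between the numbers was -0.33 for Ndufa4 (SE 0.11, adjusted p = 0.176, limma). For Ndufa4l2 it was 0.21 (SE 0.087, adjusted p = 0.233, limma), the 1 higher member at an unadjusted p under 0.05. Flox array 1 was the highest array for Ndufa4l2 and flox array 3 the lowest. Counting both genes in complex IV left its median at -0.074 and that of complex I at -0.12.

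**Figure D4:**
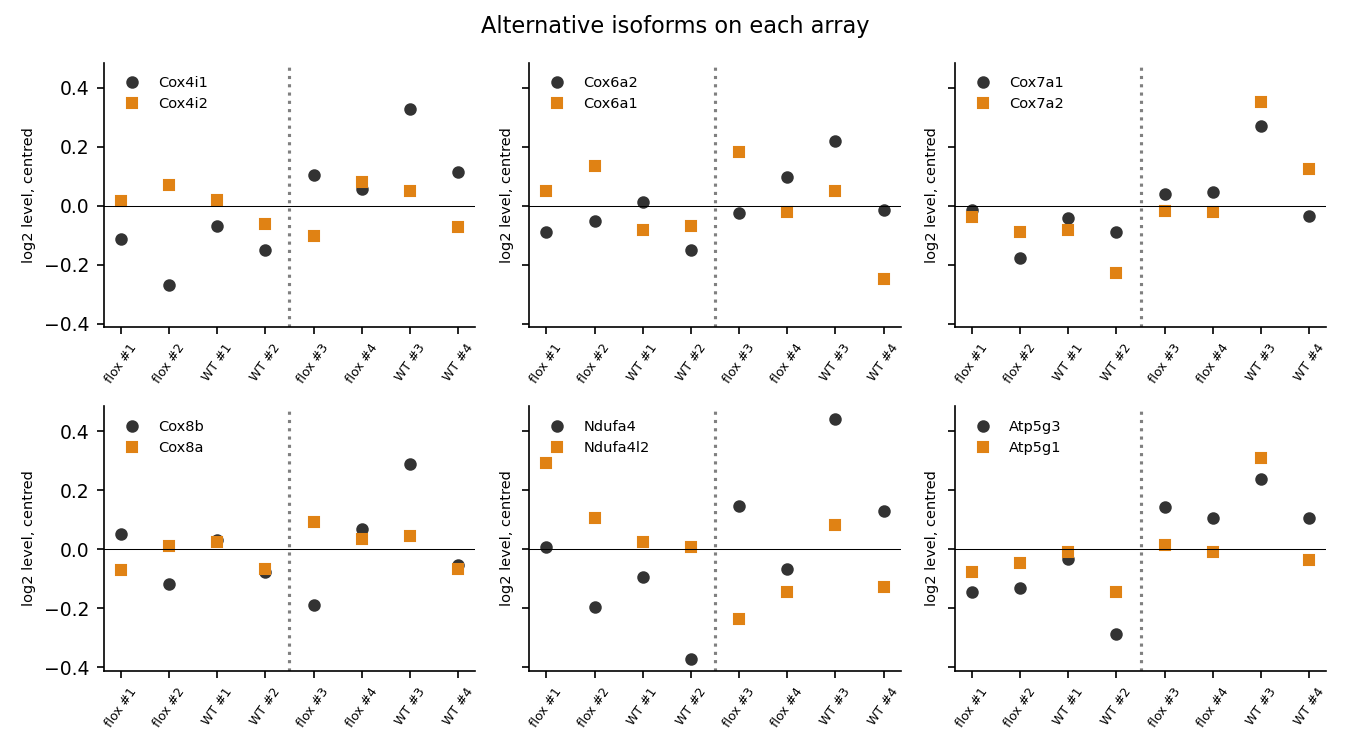
Log2 level of paired isoforms on each of the 8 arrays, each gene centred on its own mean, with arrays numbered 1 and 2 left of the dotted line; black circles are Cox4i1, Cox6a2, Cox7a1, Cox8b, Ndufa4 and Atp5g3, and orange squares their partners. Cox4i1 lies below 0 on the left and above 0 on the right, Cox4i2 does not, and the differences of Ndufa4 and Ndufa4l2 between the numbers have opposite signs.

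Complex V, the ATP synthase, had a median difference of -0.14 between the numbers. All 17 genes were on the lower side and 9 stood apart, against 56.7% and 6.21% of all genes. Log2 levels of Atp5c1, the rotating gamma subunit, were 12.02, 12.10, 12.25 and 12.28 on flox arrays 1 to 4 and 12.09, 12.03, 12.39 and 12.37 on WT arrays 1 to 4. Log2 levels of Atp5mpl, a small membrane subunit, were 10.25, 10.06, 10.45 and 10.41 on flox arrays 1 to 4 and 10.27, 10.08, 10.66 and 10.49 on WT arrays 1 to 4. Log2 levels of Atp5g3, a form of the c-ring subunit whose window holds an ERR and an NRF1 motif, were 12.12, 12.13, 12.41 and 12.37 on flox arrays 1 to 4 and 12.23, 11.97, 12.50 and 12.37 on WT arrays 1 to 4. Each of the 3 was lower on all arrays numbered 1 and 2. Atp5c1 differed by -0.27 (SE 0.052, adjusted p = 0.0628), Atp5mpl by -0.34 (SE 0.072, adjusted p = 0.0679) and Atp5g3 by -0.30 (SE 0.067, adjusted p = 0.0733), which did not pass 0.05. The other c-ring genes, Atp5g1 and Atp5g2, which encode the same mature protein as Atp5g3, differed by -0.14 (SE 0.079) and -0.13 (SE 0.072), with overlap.

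Within complex V, the F1 head and central stalk (Atp5a1, Atp5b, Atp5c1, Atp5d, Atp5e) had differences of -0.27 to -0.10, with 4 of 5 apart, including the catalytic beta subunit Atp5b at -0.10 (SE 0.048). The 4 peripheral stalk genes lay between -0.16 and -0.13, with 3 apart. The 5 small membrane subunits were spread from -0.34 for Atp5mpl to -0.0046 for Atp5md, with 1 apart. Of all genes, 6.21% stood apart on the lower side. Groupings of subunits within a complex were made after values were seen and are given as descriptions.

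The genotype difference was not shown to depend on the sample number, but the test could not detect small changes. With 2 arrays per genotype and number class, it recovered 0 of 67 changes of the smallest size planted in simulated data. At the middle size it recovered 24 of 67, and at the largest 51 of 66. The members' median for this term (1.06-fold) was below the smallest planted size, so 0 members passing cannot decide the question. In the limma interaction term, the flox minus WT difference on arrays 1 and 2 minus that on arrays 3 and 4, 0 members and 0 of 15007 genes (0.0%) passed, with 4 members and 15.3% of all genes at an unadjusted p under 0.05. The 4 were all above 0, as were 7.25% of all genes at that p, with 8.1% below. The 4 members were Ndufa1, Atp5e, Cox7a2 and Ndufa4l2, at 0.41, 0.55, 0.35 and 0.35. Log2 levels of Atp5e were 9.79, 9.71, 9.71 and 9.70 on flox arrays 1 to 4 and 9.70, 9.55, 10.36 and 9.89 on WT arrays 1 to 4, so that WT array 3 alone stood far above the rest. The term had a median of 0.079 over members, with 21 of 82 below 0, and of 0.046 over all genes, with 40.9% below 0. The members' genotype difference had a median of -0.001 on arrays 1 and 2 (43 of 82 lower, against 43.9% of all genes) and of -0.081 on arrays 3 and 4 (71 lower, against 54.2%). At an unadjusted p under 0.05 there was 1 member on arrays 1 and 2 (20.9% of all genes) and there were 7 on arrays 3 and 4 (3.85%). The median of the interaction term was 0.012 without WT array 3.

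Other mitochondrial genes, and glycolytic enzymes as well, were also mostly lower on arrays 1 and 2, where 56.7% of all genes were lower. Of 16 citric acid cycle genes, 15 were lower (median -0.17) and 12 had an unadjusted p under 0.05, beside 18.6% of all genes. The list also takes in pyruvate dehydrogenase, whose subunits Pdhb and Pdha1 were both at -0.28. Complex I assembly factors were lower for 17 of 18 (median -0.12; Ndufaf4 at -0.25, Timmdc1 at -0.30) and complex IV assembly factors for 19 of 20 (median -0.15; Cox15 at -0.27, Cox14 at -0.25). Assembly factors of complexes II, III and V were lower for 12 of 14 (median -0.079; Bcs1l, which inserts the Rieske protein, at -0.21). Electron carriers and coenzyme Q enzymes were lower for 15 of 17 (median -0.19; Etfb at -0.25, Coq10a at -0.24). All 10 genes of inner membrane exchange were lower (median -0.16), among them Ckmt2, mitochondrial creatine kinase of striated muscle, at -0.34 and Slc25a4, the ADP/ATP carrier of muscle, at -0.20. Regulators of mitochondrial biogenesis were lower for 18 of 24 (median -0.082; Ppara at -0.30, Ppard at -0.18), and glycolytic enzymes for 12 of 13 (median -0.12; Pgk1 at -0.29, whereas the regulator Pfkfb3 was at 0.55). In limma over both genotypes 0 genes of these lists passed 0.05 after adjustment, and the smallest adjusted p was 0.0616. Of the glycolytic genes, 1 passed as higher within flox.

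Some markers of fibres and of other cells differed between the numbers as well, and 0 genes of the 4 lists that follow passed in limma over both genotypes. The list called mature fast fibre also holds Acta1, Ckm, Ttn, Neb and Mb, which are not confined to fast fibres. Of its 17 genes, 16 were lower on arrays 1 and 2 (median -0.10, with Mylpf at -0.27 and Mb at -0.20). Its array means were -0.079 to -0.041 on arrays 1 and 2 and 0.016 to 0.090 on arrays 3 and 4. With that mean as a covariate, 33 of 82 members were lower and the members' median was 0.046; as the list itself separates the numbers, the covariate and the number cannot be told apart. Slow and regenerating fibre genes did not differ in 1 direction in both genotypes. Slow fibre genes were lower on arrays 1 and 2 for 8 of 10 in flox (median -0.16) and higher for 7 of 10 in WT (median 0.012), with flox array 1 at a mean of -0.31 and the other arrays between -0.059 and 0.15. Regenerating fibre genes were lower for 10 of 10 in flox (median -0.29) and higher for 8 of 10 in WT (median 0.064), with flox array 1 at a mean of -0.26 and the other arrays between -0.066 and 0.18. Macrophage genes were higher for 13 of 13 (median 0.31; C1qb at 0.48, Lyz2 at 0.33), with array means of -0.10 to 0.37 against -0.43 to 0.037; their median was 0.49 in flox (13 of 13 higher) and 0.10 in WT (10 of 13 higher). Within flox 1 slow fibre gene and 1 regenerating fibre gene passed as lower and 2 macrophage genes as higher, and within WT 0 genes of the 4 lists passed. The part of these lists in the members' difference was not tested.

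Clock genes also differed between the numbers, in both directions. On arrays 1 and 2, 10 of 14 were higher and 4 were lower, down to -0.56. At an unadjusted p under 0.05, 9 were higher and 3 lower, beside 8.92% and 9.65% of all genes. In limma 4 passed the test, all of them higher. The smallest p belonged to Ciart at 1.499 (SE 0.13, adjusted p = 0.00641) and Dbp at 0.89 (SE 0.090, adjusted p = 0.00850). The array means of the whole list, which average over both directions, were 0.083 to 0.20 on arrays 1 and 2 and -0.18 to -0.125 on arrays 3 and 4. The part of the clock genes in the members' difference was not tested. Brown adipocytes, another cell type rich in respiratory chain, had defining markers below the filter: log2 levels were 5.50 to 5.99 for Ucp1. Skin genes were high on WT array 4 alone (array mean 1.17, against -0.38 to 0.070 on the others), where the members' mean was 0.042. The tissue label was borne out by skeletal actin, Acta1, whose log2 level lay between 13.6 and 13.9 on the 8 arrays.

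**Figure D5:**
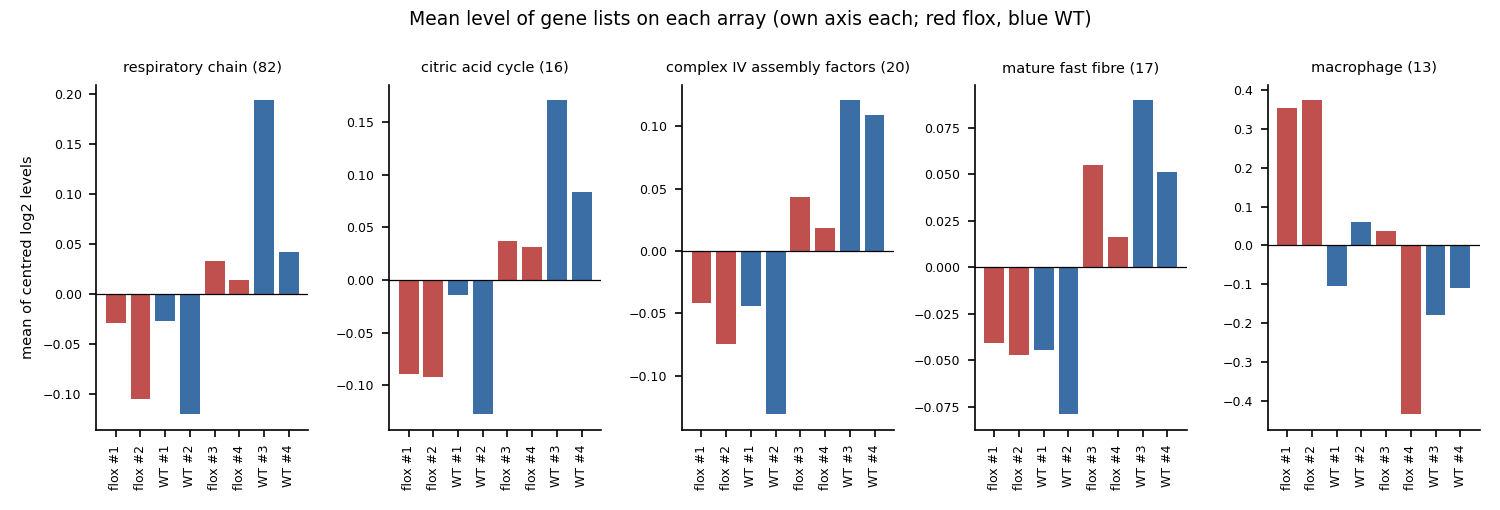
Mean of centred log2 levels on each array for the respiratory chain members and 4 other lists, each with its own vertical axis; red bars are flox, blue bars WT, and the first 4 bars of each panel are arrays numbered 1 and 2. The members, citric acid cycle genes, complex IV assembly factors and fast fibre genes are below 0 on those 4 arrays and above 0 on the others, and the macrophage mean is highest on flox arrays 1 and 2.

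Between genotypes 0 genes of these lists passed in limma. Citric acid cycle genes were lower in flox for 15 of 16 (median -0.064), complex I assembly factors for 13 of 18 (median -0.031) and complex IV assembly factors for 15 of 20 (median -0.026). Regulators of biogenesis were lower for 12 of 24 (median 0.0007) and fast fibre genes for 14 of 17 (median -0.011). At an unadjusted p under 0.05 these 5 lists held 0 genes. Other cell markers had larger medians than the members' -0.034: macrophage genes were higher in flox for 12 of 13 (median 0.17), 1 of them at an unadjusted p under 0.05, and skin genes were lower for 6 of 6 (median -0.40), 0 of them at such a p. Regenerating fibre genes were higher in flox for 8 of 10 (median 0.091). Their part in the members' genotype difference was not tested.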

How the data were processed

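Gene expression was measured on 8 arrays, 1 per sample. Probeset intensities on a linear scale (5.81 to 19080) were deposited, which the authors made with RMA in Affymetrix Power Tools per the submitters' processing notes; for versions and build, the sources used here give nothing. RMA removes background and makes arrays alike, so a shift shared by most genes would not be visible. Array medians lay between 185 and 189, and the number of arrays limits the precision.

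Values were log2-transformed. Names came from the platform annotation; all 83 members had their gene identifier in the RefSeq table of GRCm38.p6, and 0 symbols differed. A further 6 rows naming a member together with another gene (Cox7c, Ndufb4, Ndufs5) were left out, so cross-hybridisation with copies cannot be assessed there. Rows with a mean below the 25th percentile (log2 6.35) were dropped and the brightest row per gene kept. Comparisons used limma 3.58.1 (R 4.3.3) with Benjamini-Hochberg adjustment over 15007 genes at 0.05, by genotype alone, by number class with genotype as a term, and by their interaction. The fits were tested on simulated data with changes planted in known genes. At the smallest planted size, 1.25-fold, 45 of 67 changes were recovered by genotype and 36 of 67 by number class. The interaction recovered 0 of 67. The simulated noise was the spread within each genotype and number class, with no difference between numbers. In the real arrays the genotype fit keeps differences between numbers in its error, and the number fit keeps the interaction. Recovery by genotype and by number class can therefore be overstated for these arrays.

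Samples with the same number did not deviate together throughout (correlations of -0.0017, 0.352, 0.253 and 0.042), so numbers were not used as a pairing. Members, lists and the split by number were chosen with earlier results of these data known. All members could be named. The text names the 3 with the smallest p per complex and comparison, isoform sets and core subunits, and up to 2 genes of each other list. Further members were named outside this rule, such as Ndufa8, Uqcrc2 and Atp5md in the comparison by number. Members named for the interaction or for single arrays were named after their values were seen. Alternatives covered normalization, filter, row choice, covariates and leaving out arrays.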

Additional observations from a re-analysis of the deposited data

Results flagged for a closer look

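Cox7a1, the muscle and heart form of cytochrome oxidase subunit 7a, stood out on 1 array. Its log2 level was 12.4951 on WT array 3, and the other WT arrays lay between 12.13 and 12.19, so that the gap took up 0.851 of the range of the group, above Dixon's critical value for 4 samples. On the flox arrays it was 12.21, 12.05, 12.26 and 12.27. Of 166 groups of 4 arrays checked for single members and 12 for the means of members and complexes, 1 was past this value, and chance gives about 1 in 20.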

How the results depend on the processing

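The members' median differences by genotype and by number kept their sign under the other normalizations, filters and row choices. By number, the count of members past the test was 1; it was 10 with quantile normalization, 8 with cyclic loess, 11 with the 50th percentile filter, 11 with an intensity trend, 0 with the fast fibre covariate, 0 without WT arrays 2 and 3 (chosen after seeing the data) and 0 to 3 with 1 array left out. All genes past the test then numbered 56, 341, 322, 258, 243, 0 and 1 in the same order, and 3 to 175 with 1 array left out (175 without WT array 1). The median by number was 0.0458 with the fast fibre covariate. By genotype, 0 members passed under all alternatives run; the median ranged from -0.092 to 0.014 with 1 array left out. The interaction median of 0.079 was 0.0022 with quantile normalization, -0.0402 with the covariate, -0.0247 without WT arrays 2 and 3, and 0.012 to 0.15 with 1 array left out. No cause of these shifts was tested. With the replicate block the genotype median was -0.0341 and 0 members passed. At an unadjusted p under 0.05 there were 3 of 82 members, beside 4.62% of all genes. Of the 8 samples, 3 correlated best with their own number.

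Of 950 alternatives for 53 single-member results, 864 kept direction and side of the threshold, 34 gained the call, 8 lost it and 44 turned sign. With the fast fibre covariate the difference by number was 0.26 for Atp5g1, 0.27 for Atp5g2, 0.013 for Atp5mpl, 0.15 for Cox5a, 0.051 for Cox5b, 0.058 for Cox6a2, 0.014 for Cox6b1, 0.089 for Cox7a1, 0.28 for Cox7a2, 0.022 for Cox8a, 0.20 for Cox8b, -0.069 for Cox8c, 0.45 for Ndufa4, 0.41 for Ndufs8, 0.15 for Sdhd and 0.069 for Uqcrq. With quantile normalization it was -0.013 for Cox6a1, -0.019 for Cox7a2l, 0.029 for Cox7b and 0.0025 for Ndufs8; with cyclic loess, -0.0049 for Cox7a2l, 0.0063 for Cox7b and 0.011 for Ndufs8; with the mean of rows, -0.040 for Cox7a2l; without WT arrays 2 and 3, 0.047 for Cox8b and 0.094 for Ndufs8. With 1 array left out it ranged from -0.021 to 0.053 for Cox4i2, -0.044 to 0.076 for Cox6a1, -0.047 to 0.072 for Cox7a2l, -0.12 to 0.029 for Cox8b, -0.047 to 0.073 for Cox8c and -0.068 to 0.076 for Ndufs8. By genotype, without WT array 3, the ranges reached 0.013 for Atp5e (from -0.26), 0.0041 for Cyc1 (from -0.095), 0.0044 for Sdhb (from -0.10) and 0.038 for Uqcrq (from -0.13).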

Other observations

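Nnt encodes the inner membrane transhydrogenase, which uses the proton gradient built by complexes I, III and IV to make NADPH. Log2 levels of Nnt were 8.68, 9.89, 9.71 and 9.54 on flox arrays 1 to 4 and 8.45, 8.40, 9.45 and 9.25 on WT arrays 1 to 4. Thus flox array 1 and WT arrays 1 and 2 lay at 8.68 or lower and the other 5 arrays at 9.25 or higher. Nnt differed by 0.57 between genotypes (flox minus WT, SE 0.29; adjusted p = 0.912, limma) and by -0.63 between the numbers (SE 0.23; adjusted p = 0.189, limma). This is the gene in which the C57BL/6J substrain is known to carry a deletion that C57BL/6N lacks; the labels name C57BL/6 without a substrain, and a part of substrain in the differences of the respiratory chain members was not tested. The members' mean on the 3 arrays with low Nnt was -0.029, -0.027 and -0.12, and on flox array 2, where Nnt was highest, it was -0.11.

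Among members with several rows, 13 of 17 had a difference of 1 direction between the numbers in all their rows, and 11 of 17 had one between genotypes. Uqcrb had 3 rows with differences by number of -0.20 to -0.18, and Ndufs3 had 2 rows at -0.26 and -0.25. Ndufa11 had 2 rows of opposite sign, at -0.088 and 0.009.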
